A study of Mus musculus with 6 samples.

Results

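The mouse keratin genes were followed in RNA sequencing libraries of bone marrow-derived macrophages that had been cultured with mEC25, which the series title calls a cancer cell line. Members were all genes of the deposited table whose symbol is Krt followed by a number and at most 1 letter, which took 54 of 56691 genes and left out the keratin-associated proteins. Both groups were mouse bone marrow cells grown with M-CSF, the growth factor that turns bone marrow cells into macrophages, and sorted after the co-culture. In 3 libraries the macrophages and mEC25 cells had touched (contact), and in 3 libraries they had shared medium without touching (transwell). The labels give no strain, age or sex of the mice, no duration of the culture and no gate for the sort. Nothing in them ties a replicate to its own culture or mouse, and p-values here therefore measure only how far these libraries spread, which can be technical.

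Keratins are the intermediate filament proteins of epithelial cells. A filament is built from pairs that join a type I (acidic) with a type II (basic) keratin, and which pair a cell makes depends on the kind of epithelium and its layer. Simple epithelia such as gut and liver make Krt8 with Krt18, the dividing basal layer of stratified epithelia such as skin and esophagus makes Krt5 with Krt14, and wounded or fast-growing stratified epithelium adds Krt6a with Krt16 and Krt17. Differentiating upper layers make Krt1 with Krt10 in skin and Krt4 with Krt13 in inner linings such as the esophagus. The main cytoplasmic intermediate filament of macrophages is vimentin.

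Of the 54 keratins, 28 were of type I and 26 of type II. In 21 of them no read was counted in any of the 6 libraries, 13 had counts in contact libraries only, 4 in transwell libraries only and 16 in both groups. A mean of at least 1 FPKM (the authors' read count corrected for gene length and library total) was reached by 8 keratins in contact and by none in transwell libraries. These were the type I genes Krt14, Krt17, Krt18, Krt16 and Krt13 and the type II genes Krt5, Krt6a and Krt80. The highest were the basal Krt5 and Krt14 and the activated Krt6a and Krt17, followed by the simple-epithelium Krt18. Upper-layer keratins differed. Krt1 and Krt2 of skin had no count, while Krt13 reached a mean of 2.38 FPKM in contact and Krt10 and Krt80 had counts in every library.

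Keratin reads made up 0.191%, 0.289% and 0.164% of all counts in contact replicates 1, 2 and 3. In transwell replicates 1 to 3 there were 146, 127 and 164 keratin counts in all, or 0.000773%, 0.000699% and 0.000883% of all counts. Scaled to a common library total (CPM), keratins stood at 2146 ± 658 CPM in contact and 7.85 ± 0.928 CPM in transwell libraries (SD, n = 3 each), a 273-fold difference of means, and the groups did not overlap. An exact two-sided permutation test gave p = 0.1, the smallest that 3 against 3 samples allow. Without Krt5, the keratin of the highest count, the fold was 173, and on summed FPKM it was 508. In such bulk samples, a change in the number of keratin-making cells and a change in keratin RNA per cell cannot be told apart.

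Library totals ran from 18173192 to 22563835 counts. All 8 macrophage markers, among them Lyz2, Adgre1 and Csf1r, were tested, 2 being higher and 5 lower in contact against 21.4% and 16.1% of all genes tested. Their summed level lay between 13009 and 14911 FPKM in contact and between 15449 and 16472 FPKM in transwell libraries. Most of this sum was Lyz2, which hides the others. Mean Adgre1 was 578 FPKM in contact and 1228 FPKM in transwell libraries, and mean Csf1r 373 and 284 FPKM. Of 8 epithelial markers that are not keratins, 6 had enough reads to be tested, with between 0 and 18 transwell counts each, so that they entered the test through their contact reads. Their sum ran from 69.5 to 120.1 FPKM in contact and from 0.16 to 0.27 FPKM in transwell libraries, where Cldn4 and Cdh3 had no count. The higher calls, of Csf1r and Ptprc, numbered 0 without contact replicate 3 or transwell replicate 3 and 1 without contact replicate 1 or transwell replicate 2. Markers of fibroblasts summed to between 10.5 and 24.8 FPKM in contact and between 3.35 and 7.60 FPKM in transwell libraries. Of 8 such markers 6 were tested, and 4 were higher and none lower, against 21.4% and 16.1% of all genes tested. Of the higher ones, Fbln1 had only 3 transwell counts. The part of RNA from other cells in the keratin values was not tested, and no library of mEC25 cells alone was analysed here.

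**Figure D1:**
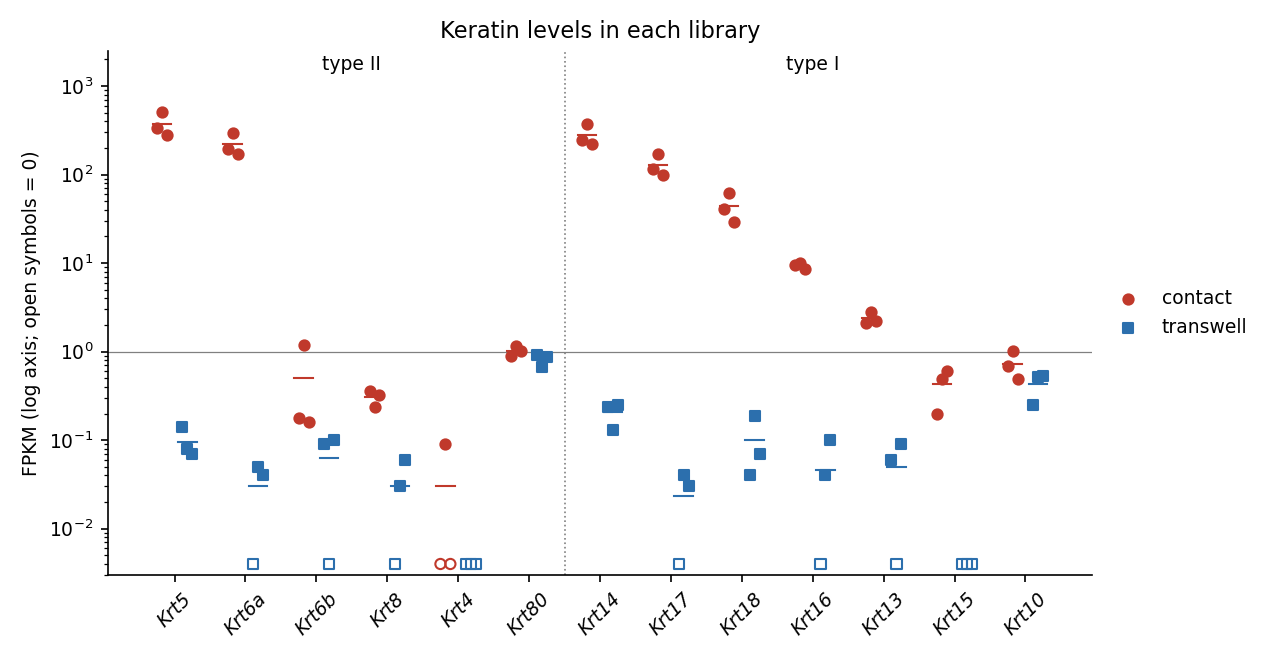
FPKM of 13 keratins in each library on a log axis, type II on the left and type I on the right; circles are contact and squares transwell libraries, short lines are means of 3, and open symbols are values of 0. Krt5, Krt6a, Krt14 and Krt17 stand near or above 100 FPKM in contact, while Krt80 and Krt10 have overlapping groups.

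Of the 54 keratins, 9 had enough reads to be tested with edgeR's quasi-likelihood test, and 7 of these were higher in contact at a Benjamini-Hochberg adjusted p under 0.05. None was lower. Among all 14113 genes tested, 21.4% were called higher and 16.1% lower, and the median log2 change was 0.03. Genes that pass the filter on low counts only through the contact libraries had to differ, so the 7 of 9 is a description of these keratins and not of the family. Over the whole family, every contact library lay above every transwell library for 16 of 54 keratins and below for none, where 11.1% of all genes in the table lay above in this way.

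The basal pair was the most abundant. Krt5 (ENSMUSG00000061527), the type II keratin of the basal layer, stood at 336, 511 and 281 FPKM in contact replicates 1 to 3 and at 0.14, 0.08 and 0.07 FPKM in transwell replicates 1 to 3. It ranked 95th of 56691 genes by mean contact level. Its type I partner Krt14 (ENSMUSG00000045545) stood at 246, 377 and 222 FPKM in contact and at 0.24, 0.13 and 0.25 FPKM in transwell libraries. For both, contact replicate 2 was the highest library and no transwell library came near the contact range. The log2 change was 11.75 ± 0.36 for Krt5 and 10.29 ± 0.31 for Krt14 (SE, edgeR adjusted p = 1.4e-07 for each). Fold values of this size rest on few transwell reads, 12 for Krt5 and 20 for Krt14. From summed counts per total, the fold was 3802 for Krt5 (95% interval 2176 to 7358) and 1368 for Krt14 (886 to 2240), intervals that cover counting error only.

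Krt15, the second type I keratin of basal cells, was a small part of that layer's output. It had 8, 18 and 24 counts in contact (0.20, 0.49 and 0.61 FPKM) and none in transwell libraries, so contact was at least 14.1-fold higher, taking 3 counts over the transwell group as the floor. It was too low for the main test. Per library, Krt15 reached 0.00060, 0.00096 and 0.00217 of the Krt5 level, with the highest share in replicate 3, where Krt5 was lowest.

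RefSeq promoter windows of the basal pair are shown here because both genes were high in the same libraries while lying on different chromosomes. Each is the stretch of 250 bases before the RefSeq start of the gene on GRCm38.p6, minus strand, at chr15:101712906-101713155 for Krt5 and chr11:100206031-100206280 for Krt14. Capitals mark matches, on either strand, to the TATA box TATAAA or its shorter form ATAAA, which overlaps it, to the AP-1 motif TGANTCA, to the GC box GGGCGG and to the AP-2 motif GCCNNNGGC. The short form was added after the sequences were seen.
Krt5: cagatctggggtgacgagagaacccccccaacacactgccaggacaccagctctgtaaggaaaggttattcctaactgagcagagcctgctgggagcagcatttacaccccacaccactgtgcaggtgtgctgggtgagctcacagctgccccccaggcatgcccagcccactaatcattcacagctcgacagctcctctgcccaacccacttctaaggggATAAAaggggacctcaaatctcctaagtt
Krt14: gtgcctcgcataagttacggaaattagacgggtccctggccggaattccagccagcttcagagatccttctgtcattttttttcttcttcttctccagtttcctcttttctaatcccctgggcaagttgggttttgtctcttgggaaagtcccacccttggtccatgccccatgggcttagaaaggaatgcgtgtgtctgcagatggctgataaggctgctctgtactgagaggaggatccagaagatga
Krt5 held 1 match, an ATAAA between 29 and 25 bases before the start, in a stretch of the same length where 37.3% of all 32851 promoter windows hold ATAAA. The Krt14 window held none of the 5 motifs. It lies inside the gene as GENCODE M21 places it (chr11:100203162-100207548, minus strand), so the bases before the M21 start were not searched. Over the 37 windows of 36 keratin genes in that table, TATAAA was in 17, its short form ATAAA in 30, GGGCGG in 2, TGANTCA in 2 and GCCNNNGGC in 5. Of all windows, 12.4%, 37.3%, 32.7%, 6.75% and 13.7% held them in that order. A match is a run of letters and not a measured binding site.

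Keratins of activated epithelium came next. Krt6a (ENSMUSG00000058354), a type II keratin induced in wounded skin, stood at 193, 294 and 169 FPKM in contact and at 0, 0.05 and 0.04 FPKM in transwell libraries (log2 change 12.61 ± 0.39, edgeR adjusted p = 1.4e-07). Krt17 (ENSMUSG00000035557), its type I companion in wound edges and tumors, stood at 116, 171 and 98.7 FPKM in contact and at 0, 0.04 and 0.03 FPKM in transwell libraries (log2 change 12.10 ± 0.41, edgeR adjusted p = 1.7e-07). Both followed the order of Krt5, with replicate 2 highest and replicate 3 lowest. Krt17 had 2 transwell counts in all, so its ratio of summed counts, 5510, has an interval from 1525 to 45499.

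Krt16 (ENSMUSG00000053797), the other type I companion of Krt6a, rose to a far lower level. It stood at 9.49, 9.99 and 8.66 FPKM in contact and at 0, 0.04 and 0.10 FPKM in transwell libraries (log2 change 7.44 ± 0.36, edgeR adjusted p = 8.4e-07). Its contact values differed by less between libraries than those of Krt6a, with the highest 1.15 times the lowest against 1.74 times for Krt6a. Krt6b, a near copy of Krt6a, stood at 0.18, 1.18 and 0.16 FPKM in contact and at 0.09, 0 and 0.10 FPKM in transwell libraries, from 9, 55 and 8 contact counts. Contact replicate 2 thus held 6.94 times the mean Krt6b level of the other contact libraries, where Krt6a in that library was at 1.62 times. Krt6b was too low for the main test.

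Simple-epithelium keratins were abundant on only 1 side of their pair. Krt18 (ENSMUSG00000023043), the type I member, stood at 41.0, 62.3 and 29.3 FPKM in contact and at 0.04, 0.19 and 0.07 FPKM in transwell libraries (log2 change 8.61 ± 0.45, edgeR adjusted p = 1.3e-06). Krt8 (ENSMUSG00000049382), its obligate type II partner in liver and gut, stood at 0.36, 0.24 and 0.32 FPKM in contact and at 0, 0.03 and 0.06 FPKM in transwell libraries. Krt8 was thus at 0.00878, 0.00385 and 0.0109 of the Krt18 level in contact replicates 1 to 3, with 16, 10 and 14 counts against 1330, 1873 and 936 of Krt18. Contact replicate 2 had the most Krt18 and the fewest Krt8 counts. Krt8 was too low for the main test, but every contact library lay above every transwell library. From summed counts per total its fold was 11.3 (95% interval for counting error 3.60 to 57.1). The other simple keratins were also low, with 31 contact counts over 3 libraries for Krt7, 9 for Krt19, 2 for Krt20 and 0 for Krt23. In transwell libraries Krt7 had 8 and Krt19 had 4 counts, and Krt20 and Krt23 had none.

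The genes of this unequal pair are neighbours. On GRCm38, GENCODE M21 places Krt8 at chr15:101996698-102004482 on the minus strand and Krt18 at chr15:102028180-102032027 on the plus strand, with 23697 bases between them. Both are annotated as protein-coding. In the M21 transcripts, 29.7% of the 50-base words of Krt8 also occur in another gene, mostly the processed pseudogene Krt8-ps, which had 0 counts in all libraries, and 0.72% of those of Krt18 do. Reads that fall in shared words may be split or dropped in counting. Krt8 also overlaps the lincRNA Gm36026 on the opposite strand, and whether the counting used strand is not stated, so its low level is uncertain to that extent. The 250 bases before each start are shown for comparison, at chr15:102004343-102004592 (minus strand) for Krt8 and chr15:102027966-102028215 (plus strand) for Krt18, with the same motifs in capitals.
Krt8: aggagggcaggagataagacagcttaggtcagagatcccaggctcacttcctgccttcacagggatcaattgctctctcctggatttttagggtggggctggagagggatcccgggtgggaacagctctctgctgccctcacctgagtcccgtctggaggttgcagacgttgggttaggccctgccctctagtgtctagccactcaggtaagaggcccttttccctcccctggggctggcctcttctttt
Krt18: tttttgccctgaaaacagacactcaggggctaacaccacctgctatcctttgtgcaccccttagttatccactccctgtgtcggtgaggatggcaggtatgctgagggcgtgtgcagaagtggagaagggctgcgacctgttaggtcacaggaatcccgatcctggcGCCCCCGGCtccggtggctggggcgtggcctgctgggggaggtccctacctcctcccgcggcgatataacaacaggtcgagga
Krt18 held a GCCNNNGGC between 83 and 75 bases before its start, a motif that reads the same on both strands. Krt8 held no match to any of the 5 motifs in this window. Both windows reach into the genes as M21 places them, so they cover the bases before the M21 starts only in part.

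Keratins of the upper layers were mixed. Krt13 (ENSMUSG00000044041), the type I keratin of esophagus and oral lining, stood at 2.12, 2.81 and 2.20 FPKM in contact and at 0.06, 0 and 0.09 FPKM in transwell libraries (log2 change 5.38 ± 0.49, edgeR adjusted p = 2.6e-05). Its partner Krt4 had 0, 4 and 0 contact counts and none in transwell libraries. Krt76, a type II keratin of oral lining that was singled out after its values were seen, had 12, 17 and 4 counts in contact and none in transwell libraries, at least 9.32-fold higher with the same floor. Krt1, Krt2, Krt9 and Krt75 had no count in any library.

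Krt80 and Krt10 were the 2 tested keratins that were not called, and they gave most of the keratin counts in transwell libraries. Krt80 (ENSMUSG00000037185), a type II keratin found in many epithelia, stood at 0.90, 1.15 and 1.03 FPKM in contact and at 0.92, 0.67 and 0.86 FPKM in transwell libraries (log2 change 0.21 ± 0.18, edgeR adjusted p = 0.396). Krt10 (ENSMUSG00000019761), the type I partner of Krt1, stood at 0.69, 1.02 and 0.49 FPKM in contact and at 0.25, 0.52 and 0.53 FPKM in transwell libraries (log2 change 0.63 ± 0.39, edgeR adjusted p = 0.244). Their groups overlapped, and neither passed the test, which does not show equal levels. Together they gave 82.9%, 77.2% and 75.0% of the keratin counts of transwell replicates 1 to 3, and 0.379%, 0.329% and 0.464% of those of contact replicates 1 to 3. Each overlaps an antisense gene in M21, Gm35853 for Krt80 and Gm11940 for Krt10, as Krt6a does with Gm49428, which sets the same limit as for Krt8.

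Hair and inner root sheath keratins were close to absent. No count in any library was found for 7 of 9 type I and 3 of 7 type II hair keratins, and for 3 of 4 type I and 3 of 4 type II keratins of the inner root sheath. Krt83 led the hair group with 10 contact and 4 transwell counts, and the root sheath group had 2 transwell counts of Krt74, a pseudogene in M21, and 2 contact counts of Krt28. Krt12 of the cornea had 1 contact count. Krt222, a short relative, had 19 contact and 6 transwell counts. Outside the 12 keratins that reached 1 FPKM or are known partners of those that did, the highest value in any library was 1.02 FPKM in contact, for Krt10, and 0.53 FPKM in transwell.

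**Figure D2:**
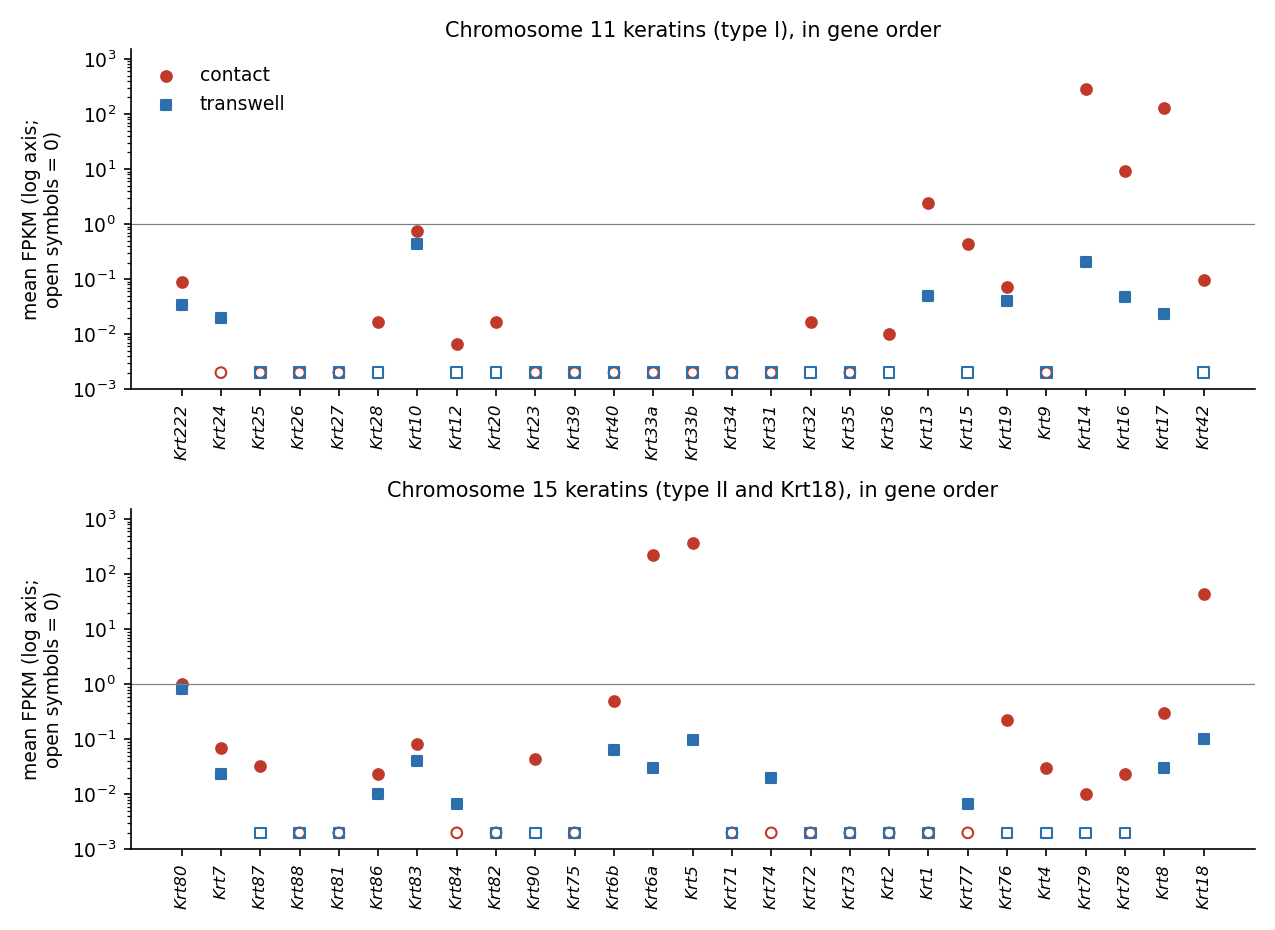
Mean FPKM (log axis, n = 3, no error shown) of all 54 keratins in their order along chromosomes 11 and 15; circles are contact, squares transwell and open symbols 0. Krt14, Krt16 and Krt17 stand next to each other, as do Krt6a and Krt5, while Krt18 stands beside the low Krt8.

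By position the abundant keratins formed short runs inside the 2 keratin clusters. GENCODE M21 places 27 of the 54 genes on chromosome 11 and 27 on chromosome 15, where Krt18 is the only type I gene. Krt14 (chr11:100203162-100207548), Krt16 (chr11:100246091-100248902) and Krt17 (chr11:100256217-100261029) are consecutive members. There are 38542 bases between Krt14 and Krt16 and 7314 between Krt16 and Krt17. Krt6a (chr15:101689910-101694307) and Krt5 (chr15:101707070-101712898) are consecutive too, with 12762 bases between them. Immediate neighbours on the far sides were low, with Krt71 and Krt9 at 0 counts, Krt42 at 11 contact counts and Krt6b at 72. All these genes are annotated as protein-coding on the minus strand.

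Ratios between the abundant keratins differed less over the contact libraries than their levels did. Krt14 stood at 0.732, 0.737 and 0.791 of the Krt5 level in replicates 1 to 3, a mean of 0.754 ± 0.0329 (SD, n = 3). The 95% counting interval of replicate 3 (0.770 to 0.813) lay above those of replicate 1 (0.714 to 0.750) and replicate 2 (0.722 to 0.753). Krt6a stood at 0.576, 0.575 and 0.601 of Krt5, and Krt17 at 0.599, 0.582 and 0.584 of Krt6a. Over the same libraries the level of Krt5 itself differed 1.82-fold. Summed over the family, type I keratins stood at 0.782, 0.773 and 0.802 of the type II level, a mean of 0.786 ± 0.0149. Krt14 made up 60.3 ± 1.10% and Krt17 27.5 ± 0.345% of type I FPKM, and Krt5 62.9 ± 0.581% and Krt6a 36.7 ± 0.581% of type II FPKM. These ratios rest on the length used for each gene: per kilobase of coding sequence Krt17 stood at 0.482 of Krt6a, against 0.588 on the FPKM scale.

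Ratios of the less abundant Krt16, Krt6b and Krt15 also differed between libraries by more than their counting error. Krt16 stood at 0.0491 of Krt6a in replicate 1 (95% interval 0.0439 to 0.0547), 0.0340 in replicate 2 (0.0304 to 0.0379) and 0.0513 in replicate 3 (0.0456 to 0.0575). The interval of replicate 2 lay below the others. Krt6b stood at 0.00401 of Krt6a in replicate 2 (0.00301 to 0.00521) and at 0.00093 and 0.00095 in replicates 1 and 3, whose intervals ended at 0.00175 and 0.00188. Here replicate 2 lay above. For Krt15 against Krt5, the interval of replicate 3 (0.00139 to 0.00324) lay above that of replicate 1 (0.00026 to 0.00118). Krt8 against Krt18 had overlapping intervals in all 3 contact libraries, from 10 to 16 Krt8 counts each. Intervals are exact binomial and cover counting error only. Between pairs of contact libraries, chi-square per degree of freedom over genes with at least 10 counts was 8.74 to 14.9. Counting error alone gives values near 1, so spread beyond it was general and not particular to these keratins.

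**Figure D3:**
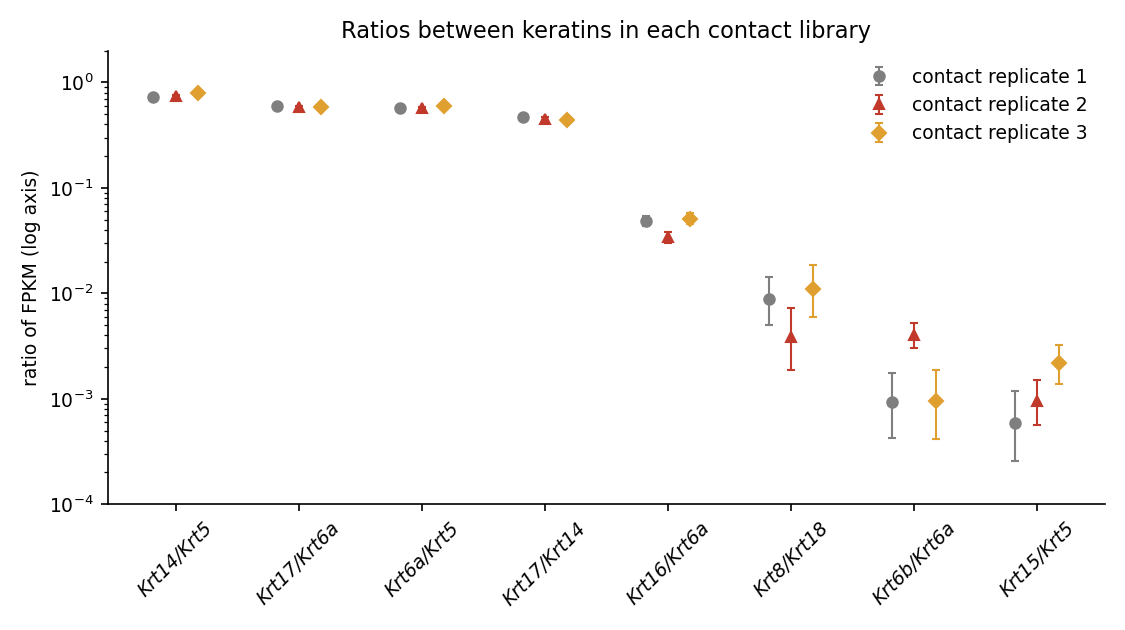
Ratio of FPKM between 8 pairs of keratins in each contact library on a log axis, with 95% exact binomial intervals for counting error. The ratios of Krt14, Krt6a and Krt17 lie close together between libraries, while Krt16/Krt6a is lower and Krt6b/Krt6a higher in replicate 2.

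Shared sequence limits the values of some members. In M21, 62.0% of the 50-base words of Krt6a and 50.1% of those of Krt6b occur in another gene, 43.6% and 44.5% in each other, and 37.6% of those of Krt16 do. For Krt14 the share was 14.4%, for Krt5 12.2%, for Krt17 3.99% and for Krt13 0%. The labels do not state how reads of near-identical genes were counted, so the split between Krt6a and Krt6b, and the level of Krt16, are uncertain.

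Across the contact libraries most abundant keratins moved with the sum of the other epithelial markers. Relative to its contact mean, Krt5 stood at 0.893, 1.36 and 0.747 in replicates 1 to 3, and the sum of the 8 other epithelial markers at 0.870, 1.35 and 0.781. Perp (0.881, 1.36 and 0.756) and Serpinb5 (0.826, 1.31 and 0.865) gave most of that sum. Cldn7, at a low level, went another way (0.789, 0.316 and 1.89). The macrophage marker sum, most of it Lyz2, stood at 0.995, 0.934 and 1.07, lowest in replicate 2. The fibroblast marker sum had yet another order (1.43, 0.966 and 0.603). The order was not particular to abundant keratins, since the low Krt10, whose groups overlapped, also showed it (0.941, 1.39 and 0.668). Krt16 (1.01, 1.07 and 0.923) and Krt13 (0.892, 1.18 and 0.926) varied less than Krt5, and Krt15 was highest in replicate 3 (0.462, 1.13 and 1.41). With 3 libraries these orders are a description, and no test was made.

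**Figure D4:**
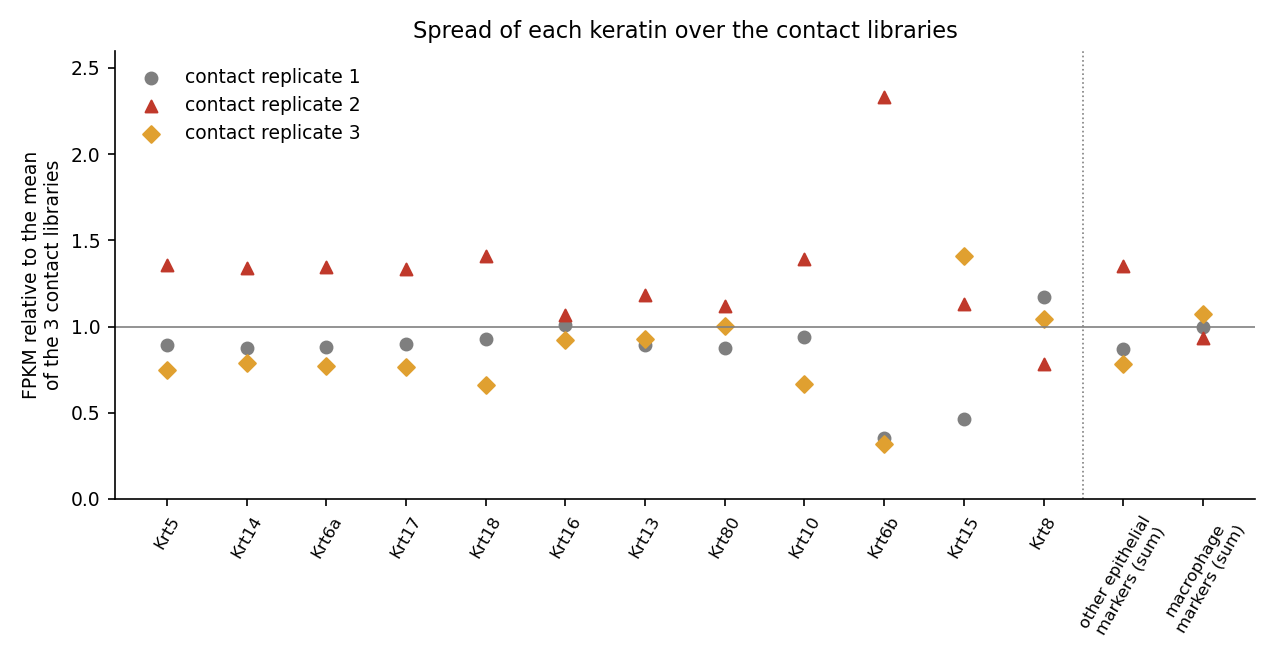
FPKM of each keratin in the 3 contact libraries divided by its contact mean, beside the summed level of 8 other epithelial markers and of 8 macrophage markers. The 5 most abundant keratins and the low Krt10 show the order of the epithelial marker sum, with replicate 2 highest, and Krt16, Krt15 and Krt8 do not share that spread.

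Of 15 fixed genes of other intermediate filaments, 6 were tested, 4 were higher and 1 lower in contact, with a median log2 change of 1.25. At a minimum count of 50 the higher calls were 2. Over all genes tested, 21.4% were called higher and 16.1% lower. Besides Lmnb1 and Lmna, the higher members were Nefl and Nes, genes of nerve and progenitor cell filaments that were named after their values were seen. They had log2 changes of 2.63 ± 0.60 and 1.99 ± 0.41 at mean contact levels of 0.223 and 0.373 FPKM. Their transwell counts were few, 6 for Nefl and 31 for Nes. Nefl entered the test through its contact reads and had to differ. Vim, the filament gene of macrophages and mesenchymal cells, fell from 312.0 ± 11.3 to 220.9 ± 5.35 FPKM (SD, n = 3; log2 change -0.61 ± 0.07, edgeR adjusted p = 7.8e-05). In transwell libraries Vim stood at 321, 299 and 315 FPKM and in contact at 220, 216 and 227. The nuclear lamin gene Lmnb1 rose from 5.11 ± 0.909 to 20.9 ± 4.59 FPKM (log2 change 1.91 ± 0.17) and Lmna from 23.0 ± 1.84 to 37.7 ± 5.32 FPKM (0.59 ± 0.11), while Lmnb2 stood at 4.59 ± 0.0862 against 4.13 ± 0.257 FPKM (edgeR adjusted p = 0.794).

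Genes that anchor keratins to junctions were a further fixed list. Of 18 linkers 17 were tested, 14 were higher and 1 lower, against 21.4% and 16.1% of all genes tested, with a median log2 change of 7.12, or 4.79 with members without transwell counts at their bound. Several, among them Dsg3, Ppl and Eppk1 with 0 transwell counts and Dsc3, Pkp1 and Evpl with 1, entered the test through their contact reads and had to differ. Dsc3, a desmosomal cadherin of basal cells, stood at 14.0, 19.4 and 12.8 FPKM in contact and at 0, 0.01 and 0 FPKM in transwell libraries. Itga6, which joins hemidesmosomes and is also made by other cells, rose from 4.11 ± 0.769 to 13.7 ± 2.92 FPKM (log2 change 1.62 ± 0.16). Jup, the gene of plakoglobin, rose from 0.507 ± 0.115 to 10.1 ± 2.55 FPKM (4.19 ± 0.22). Plec, the widely made linker plectin, stood at 12.0 ± 1.05 against 11.8 ± 0.110 FPKM (edgeR adjusted p = 0.391). The lower member, Pkp2, named after its value was seen, went from 1.93 ± 0.137 to 1.57 ± 0.204 FPKM (edgeR adjusted p = 0.0497), a call that ended under 10 of 14 alternatives.

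Differentiation genes and keratin regulators are read with the same limit, since many had few or no transwell counts and entered the test through contact. Of 13 fixed genes of cornification, 7 were tested and 6 were higher, against 21.4% of all genes tested (median log2 change 4.18). At a minimum count of 50, 3 were higher. Tgm1, a cross-linking enzyme of the cornified envelope, stood at 1.32 ± 0.0635 against 1.26 ± 0.272 FPKM (edgeR adjusted p = 0.893). Sfn, the 14-3-3 sigma gene of stratified epithelium, rose from 4.04 ± 0.360 to 79.8 ± 22.8 FPKM (log2 change 4.18 ± 0.20). Dmkn (6.83 ± 0.35) and Sbsn (3.22 ± 0.23) rose as log2 changes, and Krtdap stood at 3.20, 4.86 and 3.05 FPKM over 0 transwell counts. Sfn gave most of the list's contact sum of 77.2 to 129 FPKM. The remaining members had low contact means, with Sprr1b at 1.24, Sprr1a at 0.823 and Ivl at 0.483 FPKM. Lor stood at 0.173, Cdsn at 0.123 and Cnfn at 0.0233 FPKM, and Sprr3 and Calml3 had no contact count. Of 13 fixed regulators 8 were tested and 8 were higher against 21.4% of all genes tested, but Grhl2 had 0, Trp63 and Sox2 had 1 and Tfap2a and Sox9 had 2 transwell counts (median log2 change 6.70, or 6.65 with members without transwell counts at their bound). Trp63, the master factor of stratified epithelium that switches on Krt5 and Krt14, stood at 3.52, 5.66 and 3.41 FPKM in contact and at 0.01, 0 and 0 FPKM in transwell libraries. Klf4 rose from 2.01 ± 0.327 to 14.1 ± 3.86 FPKM (log2 change 2.69 ± 0.20), Klf5 had a log2 change of 5.48 ± 0.35, and Sox2, a factor of basal and squamous cells, stood at 4.58 ± 1.39 against 0.01 ± 0.0173 FPKM.

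The direction of the 7 called keratins was the same in every alternative fit, but the size of their change was not. On the log2(FPKM + 1) scale Krt5 was at 8.38, Krt14 at 7.84, Krt6a at 7.70, Krt17 at 6.95, Krt18 at 5.30, Krt16 at 3.31 and Krt13 at 1.68, since an added 1 outweighs transwell levels near 0.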

How the data were processed

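Per the file headers, the table deposited for the 6 libraries holds a count and an FPKM value for each Ensembl gene. Of FPKM values deposited with a count above 100, 99.93% lay within 1% of the value from the count, exonic length and library total. GRCm38 and mm10 are the builds in the submitters' processing notes. No aligner, counter or annotation is stated in the labels. Deposited positions differed from GENCODE M21 (GRCm38) for all 54 keratins, so positions come from M21 by gene ID. Promoters are from RefSeq (GRCm38.p6), with entries for 36 keratins.

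Counts were filtered (filterByExpr, minimum count 10), scaled by TMM and tested in edgeR 4.0.16 under R 4.3.3 (quasi-likelihood, two-sided, Benjamini-Hochberg over 14113 genes, threshold 0.05), checked on simulated counts. The SE is the absolute log2 change over the square root of F. Alternatives used limma 3.58.1, DESeq2 1.42.0 and scipy 1.17.1.

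Members and lists were chosen with earlier results of these data known. Keratins with a mean of at least 1 FPKM, or partners of such, are given by library, and the others by count with the highest of each class named. Of 10 fixed lists, those of neutrophil, lymphocyte and endothelial markers are in the closing section. For each list of pathway genes, up to 4 members with the highest mean FPKM over all libraries were named by rule. Any further members were named after their values were seen.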

Additional observations from a re-analysis of the deposited data

How the results depend on the processing

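Without a filter on low counts, 11 of 33 keratins were called, all higher, Krt6b, Krt8, Krt15 and Krt76 being added to the 7, where 12.5% of all genes so tested were called higher. With a library left out, 8 to 10 keratins were called of 10 to 13 tested. The filter then asks for fewer libraries and lets Krt8, Krt15 or Krt76 in through their contact reads. No share of all genes called is given for these fits. The called keratins kept their direction and call in all 14 alternatives, and Krt80 and Krt10 were never called. The fold in keratin share ran from 226 to 306 with each library left out, was 252 on TMM effective sizes and 508 on summed FPKM. Lower pathway genes numbered 1 in place of 2 under DESeq2, library totals only, a minimum count of 50 and both limma fits, and 1 to 2 with a library left out.

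Deviations of same-numbered contact and transwell libraries from their group means correlated at -0.0828, -0.445 and 0.0557. Those of differently numbered libraries correlated at between -0.303 and 0.336. With 3 libraries in each group, these values cannot decide whether the numbers in the titles mark pairs. With the replicate block, 7 of 9 tested keratins and 35 of 38 tested pathway genes were called, against 34 pathway genes without it. The sign test of the paired keratin share gave an exact p = 0.25, the smallest that 3 pairs allow. A few transwell reads per keratin limit every fold.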

Other observations

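All 58 keratin-associated protein genes of the table, which build the hair shaft around hair keratins, had no count in any library. The keratins counted in transwell libraries only were Krt24 and Krt74 with 2 counts each and Krt77 and Krt84 with 1 each.

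Of 8 neutrophil markers, S100a9 and S100a8 were abundant in both groups. S100a9 stood at 525.8 ± 114 FPKM in contact and 380.6 ± 227 FPKM in transwell and S100a8 at 262 ± 38.5 and 281 ± 114 FPKM (SD, n = 3). Ly6g was near 0, at 0.113 ± 0.103 FPKM in contact and 0.0933 ± 0.0862 FPKM in transwell libraries. The 8 markers summed to between 720.4 and 1042 FPKM in contact and between 467 and 1084 FPKM in transwell libraries. Of 7 tested, 3 were higher (Elane, Mpo and Retnlg) against 21.4% of all genes tested. With the replicate block, or without transwell replicate 1, 5 were higher. Lymphocyte markers summed to between 1.66 and 1.97 FPKM in contact and between 0.95 and 2.24 FPKM in transwell libraries, with 1 of 8 tested and not called. Endothelial markers summed to between 12.5 and 14.9 FPKM in contact and between 7.25 and 7.71 FPKM in transwell libraries. Most of this was Pecam1, at 11.8 ± 1.02 FPKM in contact and 5.90 ± 0.327 FPKM in transwell libraries. Of 4 tested, 3 were higher and 1, Vwf, was lower, against 21.4% and 16.1% of all genes tested. At a minimum count of 50, 1 was higher.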
